A study of Mus musculus with 6 samples.

Results

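The genes described here carry the interferon signal into the nucleus of mouse embryonic fibroblasts (MEFs). They are the receptor chains Ifnar1, Ifnar2, Ifngr1 and Ifngr2, the kinases Jak1 and Tyk2, and the transcription factors Stat2, Irf9 and Irf1, which make 9 of 19938 genes. A gene was taken from the array probe sets whose annotation gave its symbol alone, and Irf1, with more than 1 such probe set, was represented by the one with the highest mean over the 6 arrays. They were measured in H2AX knockout MEFs (3 arrays) and wild-type MEFs (3 arrays), all grown without any treatment in serum-containing medium, from which total RNA was labelled and hybridized to Affymetrix mouse Gene ST arrays. H2AX is the histone variant that ATM phosphorylates at DNA breaks, and the arrays were made to compare gene expression between H2AX-deficient and control MEFs. No source used here gives the sex, age or number of the embryos, the passage of the cells, or whether the replicates of a genotype, which the study calls independent, came from separate cultures, and p-values therefore cover only the spread between these arrays. The genotype and the cell line that carries it cannot be told apart.

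Type I interferons bind a receptor made of IFNAR1 and IFNAR2, to which the kinases TYK2 and JAK1 are attached. The kinases phosphorylate STAT2, which acts with IRF9 in the complex ISGF3, and ISGF3 binds the interferon-stimulated response element (ISRE) of its target genes. Interferon-gamma binds IFNGR1 and IFNGR2 with the kinases JAK1 and JAK2, and its signal reaches the gamma-activated site (GAS) of other genes, among them Irf1, whose product is itself a transcription factor. Several components, among them Stat2, Irf9 and Irf1, are known to be raised by interferon, and fibroblasts are known to keep the pathway weakly active without added interferon.

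RefSeq promoter windows, which run from 250 bases before to 50 bases after a transcript start (assembly GRCm38.p6), were found for all 9 genes, in 11 windows. They are shown for Stat2, whose transcript was lower in knockout cells, and for Irf1, whose slight decrease depended on the settings and the probe set, since both windows hold a binding motif of the pathway. Capitals mark an ISRE in Stat2, searched on both strands as GAAA, then any 2 bases, then GAAA again. In Irf1 they mark a GAS, searched as TTC, then any 3 bases, then GAA, which reads the same on both strands. The first window is chr10:128270248-128270547 and the second chr11:53769764-53770063, both on the + strand and written 5′ to 3′.
Stat2: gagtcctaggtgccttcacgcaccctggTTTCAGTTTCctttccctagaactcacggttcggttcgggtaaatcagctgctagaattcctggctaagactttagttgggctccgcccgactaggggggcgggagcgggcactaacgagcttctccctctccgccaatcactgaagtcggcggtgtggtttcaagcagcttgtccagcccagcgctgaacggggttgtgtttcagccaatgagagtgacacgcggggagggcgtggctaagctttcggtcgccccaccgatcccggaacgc
Irf1: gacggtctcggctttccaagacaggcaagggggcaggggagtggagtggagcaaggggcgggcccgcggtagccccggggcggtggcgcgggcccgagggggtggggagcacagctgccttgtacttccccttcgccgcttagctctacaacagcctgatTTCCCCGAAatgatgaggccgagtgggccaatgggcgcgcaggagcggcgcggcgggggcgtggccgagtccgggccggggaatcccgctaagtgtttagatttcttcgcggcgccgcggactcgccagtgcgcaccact
The ISRE of Stat2 begins 222 bases before the start and was the only ISRE match among the 11 windows. Of 32851 windows of this length in the whole table, 3.44% held an ISRE match and 8.30% a GAS match. The GAS of Irf1 begins 90 bases before the start, and the other Irf1 window held neither motif. A GAS match was also present in the windows of Ifnar2, as TTCCTGGAA, and of Ifnar1, as TTCACGGAA, which spans the start itself. The windows of Ifngr1, Ifngr2, Jak1 and Tyk2 and both windows of Irf9 held neither motif. The search was also run on 8 genes that were lower in knockout cells (Usp18, Irf7, Ifit1, Ifit3, Oasl2, Rtp4, Gbp9 and Gbp4). A window was found for 4 of them, and only Ifit1 and Ifit3 held a match. The motif of Stat2 is set beside those of Ifit1 and Ifit3, which are classical ISGF3 target genes. Capitals mark the ISRE letters, with 10 bases on each side, each read on the strand of the motif.
Stat2, chr10:128270266-128270295, - strand: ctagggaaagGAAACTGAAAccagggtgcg
Ifit1, chr19:34640794-34640823, - strand: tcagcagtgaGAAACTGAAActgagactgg
Ifit3, chr19:34583397-34583426, - strand: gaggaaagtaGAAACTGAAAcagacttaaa
The 10 capital letters are identical in the matches shown, but the search pattern itself fixed all of them except the 2 middle bases. The Ifit1 and Ifit3 windows each held a further ISRE match, GAAAGTGAAA, and the match equal to that of Stat2 was the one chosen for display. Neither motif overlaps the other in these windows, and a match describes the letters and not binding.

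In H2AX knockout MEFs the transcripts of Stat2, Irf9 and Jak1 were lower than in wild-type MEFs, Irf1 was slightly lower, and none of the receptor chains nor Tyk2 passed the test. Values are log2 expression values as deposited, so that a difference of 1 is a fold of 2, and a gene is called where limma gave an adjusted p under 0.05 over all 19938 genes. Of the 9 genes, 4 were lower, none was higher and 5 were not called. Of these 4, Irf1 lost its call in 8 of 14 alternatives, and its other probe set had a log2 fold change of 0.15. At an unadjusted p under 0.05, 1 gene would be higher, namely Ifnar2. Among all genes, 15.0% were called lower and 18.4% higher. In RNA of whole cultures, fewer cells that express a gene and less RNA per cell cannot be told apart. With a fold of over 2 in addition, Stat2 and Irf9 were called, against 3.18% of all genes called lower by that rule. The median log2 fold change was -0.08 over the 9 genes and 0.02 over all genes. The arrays of the genotypes did not overlap for Stat2, Irf9, Jak1 and Irf1, with every knockout array below every wild-type array, which was so for 19.5% of all genes.

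**Figure D1:**
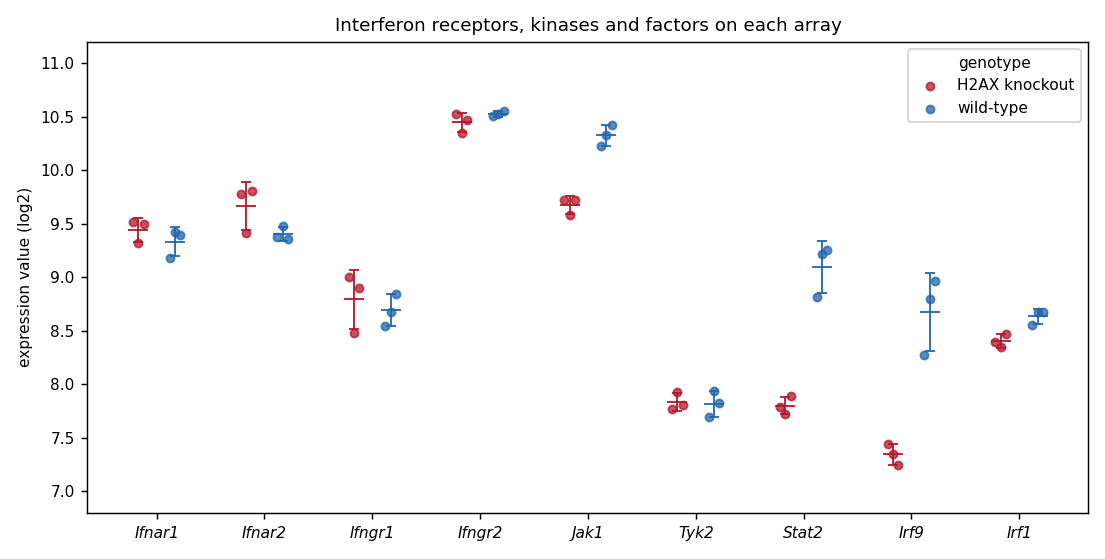
Log2 expression value on the y axis for each of the 9 genes on the x axis, with H2AX knockout (red) left of wild-type (blue). Points are single arrays in the order of their replicate numbers, and bars are the mean and SD (n = 3). Stat2, Irf9, Jak1 and Irf1 show no overlap between genotypes, whereas the receptor chains and Tyk2 overlap.

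Some facts of the whole series bear on these values. The transcript of H2ax, the targeted gene, had values of 7.69, 7.77 and 7.67 on the knockout arrays and 8.96, 9.18 and 9.0 on the wild-type arrays, and it fell by 1.34 (limma, adjusted p = 5.8e-07). The position of its probes against the deletion is not given in the sources used here. Array medians lay between 6.06 and 6.12. Of 11 fibroblast markers, all were measured, with mean levels per array of 10.7 to 10.8 on knockout and 10.2 to 10.3 on wild-type arrays. Of them 6 were higher (54.5%), 3 were lower (27.3%) and 2 were not called, against 18.4% of all genes higher and 15.0% lower. Thy1 averaged 10.6 in knockout and 6.57 in wild-type cells, and Pdgfrb 10.5 in knockout and 8.80 in wild-type cells, whereas Dcn averaged 9.57 in knockout and 11.7 in wild-type cells and Fn1 12.6 in knockout and 12.9 in wild-type cells. The mean of 8 macrophage and leukocyte markers lay between 5.11 and 5.21 on knockout arrays and between 5.05 and 5.12 on wild-type arrays, with 1 called higher, Cd68. Endothelial and epithelial markers (5 each) lay at 4.82 to 4.96 and 5.63 to 5.80 on knockout arrays, and at 4.89 to 4.98 and 5.66 to 5.71 on wild-type arrays, with 1 of them called lower, Cdh5. The Y-linked genes Eif2s3y and Uty, looked at after other values were seen, averaged 4.05 and 4.35 on knockout arrays and 8.09 and 8.08 on wild-type arrays, and the part of these differences between the cells in the results below was not tested.

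Among the receptor chains, Ifnar1, the chain to which TYK2 attaches, had values of 9.51, 9.32 and 9.50 in knockout cells, against 9.18, 9.42 and 9.39 in wild-type cells. The genotypes overlapped, and the log2 fold change was 0.11 with a 95% interval of -0.08 to 0.31 (limma, adjusted p = 0.39). Ifnar2, the chain that binds interferon most tightly and carries JAK1, had values of 9.78, 9.41 and 9.81 in knockout cells, against 9.38, 9.48 and 9.36 in wild-type cells. Knockout replicates 1 and 3 lay above all wild-type arrays and knockout replicate 2 lay among them. The log2 fold change of Ifnar2 was 0.26 with an interval of 0.03 to 0.49 (limma, adjusted p = 0.087), and without knockout replicate 2 it was 0.39 (limma, adjusted p = 0.0017), which would make it the only gene of the 9 called higher.

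Ifngr1, the ligand-binding chain of the interferon-gamma receptor, had values of 9.0, 8.48 and 8.90 in knockout cells, against 8.55, 8.68 and 8.85 in wild-type cells. Its knockout arrays spread over 0.52 on the log2 scale, with replicate 2 below and replicates 1 and 3 above all wild-type arrays. The log2 fold change was 0.10 with an interval of -0.19 to 0.40 (limma, adjusted p = 0.63). Ifngr2, the signalling chain of the same receptor, had values of 10.53, 10.35 and 10.47 in knockout cells, against 10.50, 10.52 and 10.55 in wild-type cells. The log2 fold change of Ifngr2 was -0.08 with an interval of -0.23 to 0.07 (limma, adjusted p = 0.43). The intervals of the receptor chains thus reach no further than -0.23 below and 0.49 above 0, and none includes a fold of 2. All 4 chains were lowest on knockout replicate 2 among the knockout arrays.

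Of the kinases, Jak1 was called and Tyk2 was not. Jak1, which serves both interferon receptors and many cytokine receptors, had values of 9.72, 9.58 and 9.72 in knockout cells, against 10.22, 10.33 and 10.43 in wild-type cells. The lowest wild-type array lay 0.50 above the highest knockout array, more than the spread of 0.14 among knockout and 0.20 among wild-type arrays. Jak1 fell by 0.65 on the log2 scale (standard error 0.07, limma adjusted p = 1.0e-04), a size of 1.57-fold. Tyk2, the partner kinase on IFNAR1, had values of 7.77, 7.93 and 7.81 in knockout cells, against 7.69, 7.94 and 7.82 in wild-type cells. These values overlapped throughout, with a log2 fold change of 0.02 and an interval of -0.16 to 0.20 (limma, adjusted p = 0.89). The sign for Tyk2 turned to -0.03 without knockout replicate 2 and to -0.04 without wild-type replicate 1.

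Stat2, the activation subunit of ISGF3, had values of 7.79, 7.73 and 7.89 in knockout cells, against 8.82, 9.22 and 9.26 in wild-type cells. The genotypes were separated by 0.93 on the log2 scale, and the wild-type arrays spread over 0.44, with replicate 1 the lowest. Stat2 fell by 1.29 (standard error 0.11, limma adjusted p = 1.4e-05), a size of 2.45-fold, and 2.21% of all genes had a change as low or lower. Irf9, the DNA-binding subunit of ISGF3, had values of 7.45, 7.35 and 7.25 in knockout cells, against 8.27, 8.80 and 8.96 in wild-type cells. The gap between the genotypes was 0.82, while the wild-type arrays spread over 0.69, again with replicate 1 the lowest. Irf9 fell by 1.33 (standard error 0.15, limma adjusted p = 9.7e-05), a size of 2.52-fold. The decreases of Stat2 and Irf9 were close in size, and their order turned without knockout replicate 3 (-1.34 for Stat2 and -1.28 for Irf9) and without wild-type replicate 3 (-1.21 and -1.19).

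Irf1, a factor that binds ISRE-like sites and is known as an early interferon-gamma target, had values of 8.40, 8.35 and 8.47 in knockout cells, against 8.55, 8.68 and 8.67 in wild-type cells. The genotypes did not overlap, but only 0.08 on the log2 scale lay between them. Irf1 fell by 0.23 (standard error 0.07, limma adjusted p = 0.025), a size of 1.17-fold. The other probe set that carries the Irf1 symbol lay at 6.22, 6.33 and 6.14 in knockout cells, against 6.04, 6.05 and 6.15 in wild-type cells, a log2 fold change of 0.15 (limma, adjusted p = 0.20 over all probe sets). The probe sets of Irf1 therefore differed in sign, and with their mean the log2 fold change was -0.04 (limma, adjusted p = 0.69). The call of Irf1 was also lost without knockout replicate 1 or 2 and without wild-type replicate 2 or 3, with adjusted p between 0.059 and 0.096.

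**Figure D2:**
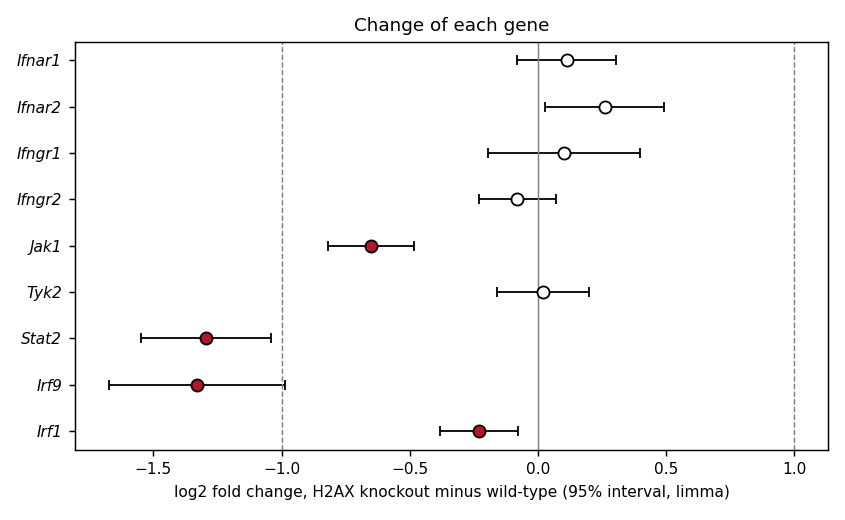
Change of each of the 9 genes on the x axis, as the log2 value of H2AX knockout minus that of wild-type, with bars for the 95% interval from limma. Filled points are genes called at an adjusted p under 0.05, open points are the others, and dashed lines mark a fold of 2. Stat2 (-1.29) and Irf9 (-1.33) lie beyond the lower line, and Jak1 at -0.65 and Irf1 at -0.23 lie between it and 0. The intervals of Ifnar1, Ifngr1, Ifngr2 and Tyk2 include 0. Ifnar2, at 0.26, is an open point whose interval of 0.03 to 0.49 lies above 0.

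Whether partners changed unequally was asked from the difference of their log2 values on each array, in 4 pairs, with an exact two-sided permutation test that cannot give a p below 0.10 with 3 arrays against 3. Jak1 minus Tyk2 was 1.96, 1.65 and 1.91 in knockout cells, against 2.53, 2.39 and 2.60 in wild-type cells, a change of -0.67 without overlap (exact p = 0.10, the smallest possible, and 0.40 after Benjamini-Hochberg adjustment over 4 pairs). For the ISGF3 subunits, Stat2 minus Irf9 changed by 0.04, with 0.45 ± 0.16 in knockout and 0.42 ± 0.13 in wild-type cells (SD, n = 3 each, exact p = 0.70). Ifnar1 minus Ifnar2 changed by -0.15 (exact p = 0.20) and Ifngr1 minus Ifngr2 by 0.18 (exact p = 0.30), and in these 3 pairs the genotypes overlapped. The test could not have passed a threshold of 0.05 for any pair, so it leaves unequal change undecided, and the change of Jak1 minus Tyk2 lay between -0.73 and -0.58 in the 8 alternatives run for it.

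Wild-type replicate 1 carried the lowest wild-type value for 8 of the 9 genes, Ifnar2 being the exception, whereas 47.2% of all genes were lowest on that array. Knockout replicate 2 carried the lowest knockout value for 7 of the 9, against 41.1% of all genes, the others being Tyk2 and Irf9. The same wild-type array was lowest for 23 of 24 measured ISGF3 target genes. Without wild-type replicate 1 the log2 fold changes of Stat2 and Irf9 were -1.43 and -1.53, so that these decreases were larger without it.

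The pathway around the 9 genes was read from lists of their ligands, partners, brakes and targets. Of 16 measured interferon genes none was higher and 1 was lower (2 without knockout replicate 2), against 18.4% and 15.0% of all genes. The gene called lower was Ifna2, with 5.11, 5.03 and 4.96 in knockout cells, against 5.50, 5.47 and 5.38 in wild-type cells (log2 fold change -0.42, limma adjusted p = 0.0010). Ifna genes are close copies of each other, so that a probe set may read more than 1 of them, and Ifna2 lay below the median gene mean of 6.39 in both genotypes. Ifnb1, the interferon gene that fibroblasts are known to use first, averaged 4.55 ± 0.09 in knockout and 4.50 ± 0.02 in wild-type cells (SD, n = 3 each), and Ifng averaged 5.27 ± 0.11 in knockout and 5.26 ± 0.02 in wild-type cells (SD, n = 3 each). Only Ifna5, Ifnz and Ifnl2 lay above the median gene mean, with averages of 7.54, 7.17 and 7.14 in knockout and 7.49, 7.33 and 7.07 in wild-type cells. The other interferon genes lay below it, with Ifnb1 at percentile 13.8 and Ifng at percentile 31.3 of gene means. At such levels an absent transcript and an unchanged one cannot be told apart. With the lower 50% of genes left out, Ifna2 was no longer tested and no interferon gene was called lower.

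Of 17 measured other JAKs, STATs and receptors that use JAKs, 7 were lower (41.2%), 4 were higher (23.5%) and 6 were not called, against 15.0% of all genes lower and 18.4% higher, with a median log2 fold change of -0.14. Jak2, the partner of JAK1 on the interferon-gamma receptor, had a log2 fold change of -0.06 (limma, adjusted p = 0.71), and Il10rb, whose gene lies between Ifnar2 and Ifnar1 on chromosome 16 and encodes a chain shared by the interleukin-10 and interferon-lambda receptors, of -0.19 (limma, adjusted p = 0.40). The largest decreases were those of receptor chains for interleukin-4 and interleukin-13. Il13ra1 had values of 7.51, 6.91 and 7.31 in knockout cells, against 9.66, 9.73 and 9.69 in wild-type cells, and fell by 2.45 (limma, adjusted p = 3.6e-07). Il4ra fell by 1.67 (limma, adjusted p = 2.2e-07), and Stat6, the STAT that this receptor activates and a gene chosen after its values were seen, fell by 1.65 (limma, adjusted p = 6.0e-08). The largest increases were those of Lifr, a receptor chain of the interleukin-6 family, by 1.16, and of Stat5a by 0.55.

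Among 9 other IRF factors and their binding partners, 2 were lower (22.2%) and 1 was higher (11.1%), shares near those of all genes, of which 15.0% were lower and 18.4% higher. The count of higher genes was 2 without knockout replicate 1 and with median centring. It was 0 with a one-way analysis of variance, the test that the methods name. The count of lower genes lay between 1 and 3 in the alternatives. Irf7, an ISGF3 target that drives interferon-alpha genes, had values of 5.38, 5.60 and 5.54 in knockout cells, against 7.26, 8.05 and 7.90 in wild-type cells, and fell by 2.23 (limma, adjusted p = 6.2e-06). Irf5 fell by 0.30 and Irf2bp1, which encodes a partner of IRF2, rose by 0.53, while Irf3, the factor that acts downstream of nucleic acid sensors, had a log2 fold change of -0.05 (limma, adjusted p = 0.66). Of 18 negative regulators of JAK-STAT signalling, 8 were lower (44.4%), 6 were higher (33.3%) and 4 were not called. Among all genes 15.0% were lower and 18.4% higher. Over 13 alternatives the count of lower regulators lay between 5 (without wild-type replicate 2) and 9 (without wild-type replicate 1). That of higher regulators lay between 4 and 6. Usp18, which blocks IFNAR2 signalling and is itself an ISGF3 target, averaged 5.29 ± 0.17 in knockout and 9.18 ± 0.54 in wild-type cells (SD, n = 3 each), the largest decrease of that list. Sh2b3, an adaptor that restrains JAK2, fell by 1.73, while Socs2 rose by 1.16 and Pias4, which restrains STAT activity, by 0.44. Of the SOCS proteins that act on the interferon receptors, Socs1 fell by 0.29 (limma, adjusted p = 0.047) and Socs3 had a log2 fold change of 0.04 (limma, adjusted p = 0.78).

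Target genes of the pathway were lower in many cases. Of 24 measured ISGF3 target genes 23 were lower and none was higher, with a median log2 fold change of -1.01, against 15.0% of all genes called lower. The exception was Ifit2, with a log2 fold change of 0.08 (limma, adjusted p = 0.65). Ifit3 fell by 3.70 and Ifit1 by 3.17. The mean log2 value of the 24 genes was 6.13, 6.09 and 6.11 on the knockout arrays, against 7.31, 7.69 and 7.59 on the wild-type arrays. Of 20 measured interferon-gamma target genes 10 were lower, none was higher and 10 were not called, with a median of -0.30. The largest decreases were those of the guanylate-binding proteins Gbp9, by 3.16, and Gbp4, by 2.17. These lists hold genes that respond to either interferon, and ISGF3 target genes of these arrays were already known to be lower when they were listed, so that their direction is not independent evidence.

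**Figure D3:**
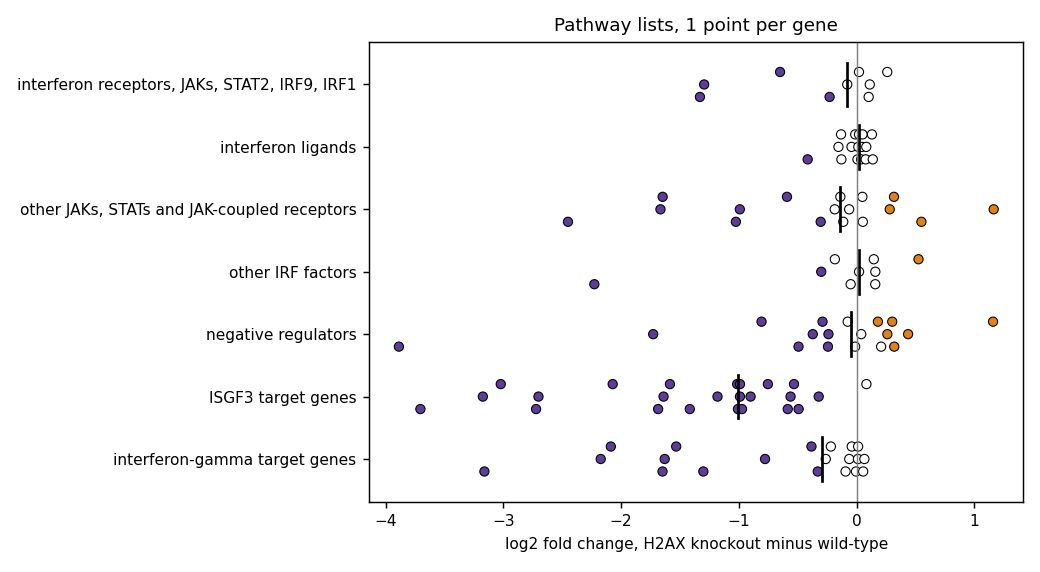
Change of each measured gene of 7 groups on the x axis, as the log2 value of H2AX knockout minus that of wild-type, with 1 point per gene and a vertical bar at the median. Genes called at an adjusted p under 0.05 are filled, purple for lower and orange for higher, and the others are open. The filled points of the ISGF3 targets (23 genes) and interferon-gamma targets (10 genes) lie below 0, while partners and negative regulators lie on both sides.

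**Figure D4:**
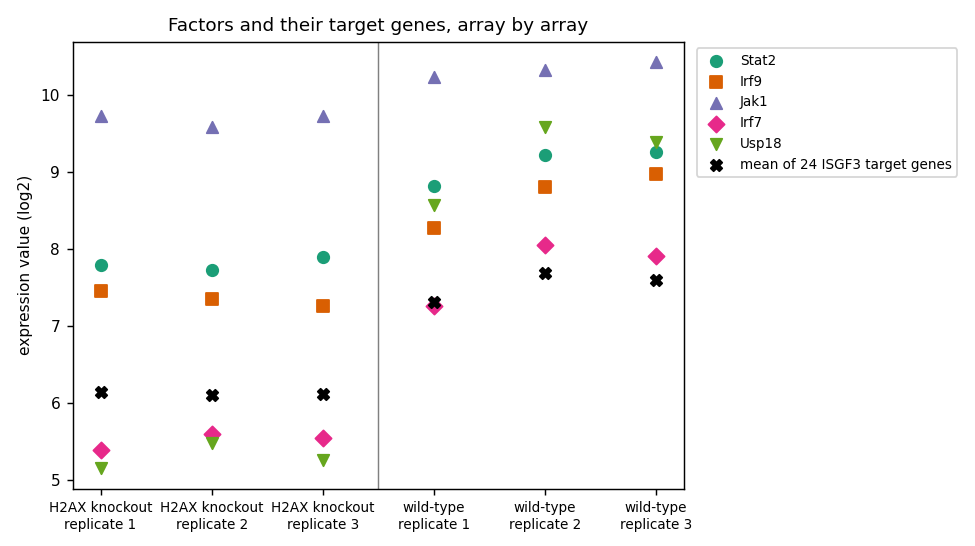
Log2 expression value on the y axis for each array on the x axis, with H2AX knockout arrays left of the line and wild-type arrays right of it. Symbols stand for Stat2, Irf9, Jak1, Irf7, Usp18 and the mean of 24 ISGF3 target genes. On the wild-type side each symbol is lowest on replicate 1, and the mean of the target genes lies at 6.09 to 6.13 on the knockout arrays, against 7.31 to 7.69 on the wild-type arrays.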

How the data were processed

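RNA of 3 H2AX knockout and 3 wild-type MEF arrays was analysed, grouped by the submitters' labels. The authors used Affymetrix Expression Console and normalized in Partek (version 6.6), and the deposited table holds log2 expression for 35556 probe sets. How background was corrected and probes were summarized is not given in the sources used here, and a difference in total RNA per cell is not visible after normalization. The methods name another version of the Gene ST array than the one whose annotation matches the deposited identifiers. Of the probe sets, 21789 carried 1 symbol, updated through RefSeq gene identifiers (21698 matched), 1621 carried several and 12146 were not listed. Only the first were used, which gave 19938 genes.

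Genotypes were compared with limma (version 3.58.1, R version 4.3.3) on all 6 arrays without covariates, in place of the methods' one-way analysis of variance, with Benjamini-Hochberg adjustment over all genes, and permutation tests used scipy (version 1.17.1). On simulated data of 19938 genes, the fit found 98% of 100 genes with a log2 change of 1.5 and 66% of 100 with a change of 0.5, with 7 false calls. That simulation changed 200 genes and drew independent normal noise, whereas 6666 genes were called in the data. Its rates therefore do not carry over to this comparison. The 9 genes and the lists were chosen with earlier results of these data known. Named were all 9 genes, the 2 largest rises and 2 largest falls at an adjusted p under 0.05 of each list, a set of partners, and the gene with the nearest profile to each of the 9. The number of arrays limits the precision.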

Additional observations from a re-analysis of the deposited data

How the results depend on the processing

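Stat2, Irf9 and Jak1 were lower at an adjusted p under 0.05 in all 14 alternatives run for each (a replicate block, each of 6 arrays left out, no moderation of the variance, a trended and robust prior, quantile normalization, median centring, the lower 50% of genes left out, probe sets averaged per gene, and adjustment over all probe sets). Their log2 fold changes lay between -1.43 and -1.21, between -1.53 and -1.19, and between -0.70 and -0.60. Irf1 lost its call in 8 of 14, among them no moderation of the variance (adjusted p = 0.057), median centring (adjusted p = 0.062) and the mean of its probe sets, and the cause was not tested. Leaving out 1 array at a time gave 3 to 4 lower and 0 to 1 higher genes of the 9, log2 fold changes of -0.0012 to 0.26 for Ifngr1 and -0.043 to 0.080 for Tyk2, and 5339 to 6826 called genes in all. A fold of over 2 left 2 of the 9 lower, and a fold of over 1.5 left 2374 of 6666 called genes. With the lower 50% of genes left out, several targets, such as Mx2 and Cmpk2, were no longer tested. Of the ISGF3 targets still tested, 13 were lower and only Ifit2 was not, and 5 interferon-gamma targets were lower. Same-numbered arrays had correlations of deviations of -0.29, -0.24 and 0.08, and no array correlated best with its own number. Knockout replicate 3 was nearly level between wild-type replicates 2 and 3 (0.084 and 0.080). Deviations from a mean of 3 arrays constrain each other, so these correlations cannot decide whether the arrays were paired. With the replicate number as a block, 5810 genes were called in all, and of the 9 genes 3 were lower, Irf1 being lost (adjusted p = 0.058).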

Other observations

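The genes directly beside Jak1, Stat2, Irf9 and Irf1 were taken from the order of protein-coding genes in RefSeq. None was called lower, which for so few genes is near the 15.0% of all genes called lower. Raver2 and Ak4, next to Jak1 on chromosome 4, had log2 fold changes of -0.04 (limma, adjusted p = 0.71) and 0.46 (limma, adjusted p = 0.0018). Apof and Il23a, next to Stat2 on chromosome 10, had log2 fold changes of 0.17 (limma, adjusted p = 0.29) and -0.01 (limma, adjusted p = 0.90). Rnf31 and Rec8, next to Irf9 on chromosome 14, had 0.09 (limma, adjusted p = 0.48) and 0.00 (limma, adjusted p = 0.99), and Il5 and Slc22a5, next to Irf1 on chromosome 11, had 0.03 (limma, adjusted p = 0.74) and 0.22 (limma, adjusted p = 0.13). Ifnar2, Il10rb, Ifnar1 and Ifngr2 follow each other on chromosome 16, and none of them was called, whereas Tmem50b, the gene after Ifngr2, rose by 0.27 (limma, adjusted p = 0.032). Tyk2 lies on chromosome 9, as does the targeted gene H2ax.

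For each of the 9 genes, the gene with the nearest profile was found among 18004 named protein-coding genes, as the smallest Euclidean distance between log2 values centred on each gene's mean over the 6 arrays. These distances describe 6 arrays of 2 genotypes and carry no test. The nearest gene to Stat2 was Gsto2, with a distance of 0.17 and a log2 fold change of -1.40. Tor3a was nearest to Irf9, at a distance of 0.18 and with a log2 fold change of -1.24, and Cpped1 was nearest to Jak1, at 0.05 and -0.62. Irf1 was nearest to Fmn1, at 0.04 and -0.23. For the genes that were not called, the nearest were Gulp1 for Ifnar1, Wdr3 for Ifnar2, Zfp248 for Ifngr1, Khdc4 for Ifngr2 and Sec16b for Tyk2, at distances of 0.02 to 0.07.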
